A study of Mus musculus with 2 samples.

Results

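*Mt1*, *Mt2*, *Slc30a1* and *Mtf1*, the metallothioneins and core zinc-response genes of the mouse, were followed through the deposited single cell counts of a study of infected spleen. They are 4 of the 32285 genes counted, chosen by name for their role in zinc handling, with earlier results of these data known. The counts of members given below are therefore descriptions. The study compared splenocytes of C57BL/6 mice with wild type *Ptpn22* (PEP-WT) with those of PEP-619WW mice, whose *Ptpn22* carries a CRISPR/Cas9 change of an arginine to a tryptophan. Both genotypes were infected with the persistent LCMV strain clone 13 (LCMV-cl13) and taken at 8 days post infection (dpi). Spleens of 4 to 5 age-matched and sex-matched mice were pooled for each genotype, sorted for live CD45+ cells and sequenced by the 10x 3' method. Every cell of a PEP-619WW mouse carries the allele, and no uninfected library was among the files. The comparison asks how the allele goes with metallothionein transcripts in each splenic population.

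Metallothioneins are small cytosolic proteins that hold zinc and copper through many cysteines, and *Mt1* and *Mt2* encode the widely expressed pair. MTF1 is the zinc-sensing transcription factor that binds metal response elements when free zinc is high, and *Mt1*, *Mt2* and *Slc30a1* are its classical targets. *Slc30a1* encodes ZnT1, the zinc exporter of the plasma membrane. Glucocorticoids and oxidative stress also induce the metallothioneins, and these genes are known to be transcribed in developing red cells, macrophages and activated lymphocytes.

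*Mt2* (chr8:94172664-94173568, plus strand, GRCm38, GENCODE annotation) lay 5513 bases upstream of *Mt1* (chr8:94179082-94180327, plus strand), and each had 3 exons. The sequence before each start is shown because MTF1 acts in promoters. Capitals mark matches on either strand to the metal response element core TGCACNC or TGCGCNC, 2 forms that cannot match at the same place on 1 strand. The sequences are from RefSeq (GRCm38.p6), with the promoter of *Mt1* at chr8:94178839-94179081, that of *Mt2* at chr8:94172368-94172617 and that of *Slc30a1* at chr1:191906531-191906766, all on the plus strand.
Mt1 promoter: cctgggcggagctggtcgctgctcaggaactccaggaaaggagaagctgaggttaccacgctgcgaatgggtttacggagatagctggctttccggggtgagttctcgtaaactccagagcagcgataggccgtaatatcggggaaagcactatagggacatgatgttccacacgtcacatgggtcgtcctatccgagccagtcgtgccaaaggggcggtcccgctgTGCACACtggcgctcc
Mt2 promoter: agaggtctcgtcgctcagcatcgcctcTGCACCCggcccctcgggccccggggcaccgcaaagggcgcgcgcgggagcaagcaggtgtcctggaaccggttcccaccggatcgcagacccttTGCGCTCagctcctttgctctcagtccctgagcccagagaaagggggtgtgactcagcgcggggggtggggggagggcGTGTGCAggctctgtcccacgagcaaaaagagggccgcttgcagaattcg
Slc30a1 promoter: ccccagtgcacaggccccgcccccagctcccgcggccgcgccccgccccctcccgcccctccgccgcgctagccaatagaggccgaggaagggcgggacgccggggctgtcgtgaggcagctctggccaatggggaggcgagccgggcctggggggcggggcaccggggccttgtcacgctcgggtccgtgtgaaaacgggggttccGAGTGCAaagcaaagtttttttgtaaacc

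In the whole RefSeq window of 250 bases before to 50 after the start, *Mt2* held 4 matches, *Mt1* held 3, *Slc30a1* (chr1:191906767-191913247, plus strand) held 2 and *Mtf1* (chr4:124802104-124849800, plus strand) held 0. Of 32851 windows of this length, 25.7% held at least 1 match, 7.11% at least 2, 1.97% at least 3 and 0.517% at least 4. Matches beyond the printed stretch lie after it in the window, and for *Mt1* these began 2 and 20 bases past the RefSeq start. A match is only a run of letters and was not shown here to be a site.

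The coding sequences of the GENCODE transcripts show why the pair can be told apart by the sequencing and what they share. Capitals mark the cysteine codons.
Mt1 coding: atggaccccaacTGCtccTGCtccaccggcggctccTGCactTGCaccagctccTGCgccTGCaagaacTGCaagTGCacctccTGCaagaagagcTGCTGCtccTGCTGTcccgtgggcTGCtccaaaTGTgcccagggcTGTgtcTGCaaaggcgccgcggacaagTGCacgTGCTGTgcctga
Mt2 coding: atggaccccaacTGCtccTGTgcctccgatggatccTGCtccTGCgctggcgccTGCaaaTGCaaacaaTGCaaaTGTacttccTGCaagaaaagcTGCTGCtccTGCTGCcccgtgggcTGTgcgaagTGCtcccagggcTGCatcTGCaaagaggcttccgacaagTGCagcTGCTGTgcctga

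Both ran for 186 bases, of which 148 were identical (79.6%). Each had 61 codons before the stop, 20 of them for cysteine (32.8%), and all 20 cysteine codons stood at the same positions. The longest run shared by the 2 transcripts was 20 bases, against a read of 90 bases, so a read that spans its whole length cannot match both.

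Each genotype had 2 deposited runs of 1 library each, which are described apart because neither the labels nor the methods say how they relate or whether both come from the same pool. The libraries held 14821 (PEP-WT) and 8576 (PEP-619WW) barcodes in run 1, and 9539 and 11029 in run 2. The median depth was 2832, 3293, 4837 and 3611 unique molecular identifiers (UMIs) per barcode, in the same order. It is likewise not stated whether both runs are of the same tissue. Run 2, with medians of 1709 and 1477 genes per barcode, has the barcode numbers and median genes that the methods give for the study's libraries after cell calling, and run 1 does not. Most values below are from run 1, since run 2 held few lymphocytes in PEP-WT. With 1 library per genotype and run there is no replicate check, so no difference between genotypes was tested. All intervals are exact 95% intervals, which cover counting error only, and cells of a library are not replicates. The labels name liver, the Jurkat line and tumor infiltrating cells, whereas the study describes spleen. The hepatocyte genes *Alb* and *Serpina1a* were at 0 in all 4 libraries, and the sum of 4 hepatocyte markers was at most 0.0284 counts per 1000000 UMIs (CPM). Run 1 had the populations of a spleen, whereas 6488 of the 9539 PEP-WT barcodes of run 2 met the gate for monocytes or macrophages, and 249 carried melanocyte genes. The melanocyte gate held 25 barcodes in PEP-619WW of run 2 and 0 in each library of run 1. Between 19 and 49 barcode sequences were shared by any pair of libraries.

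Barcodes were placed in 5 classes by their own transcripts. CD8 T barcodes had *Cd3e* and *Cd8b1*, CD4 T barcodes had *Cd3e* and *Cd4*, and B barcodes had *Cd79a* and *Ms4a1*. Monocyte or macrophage barcodes had at least 5 UMIs of *Lyz2*, and erythroid barcodes at least 2 of *Car1* and *Ermap* together. In run 1 these held 1439, 361, 6937, 1600 and 373 PEP-WT barcodes and 953, 261, 3144, 1236 and 168 PEP-619WW barcodes. A barcode could meet more than 1 gate, as 25.4% of PEP-WT and 23.6% of PEP-619WW CD8 T barcodes did. A level is the summed UMIs of a gene per 1000000 UMIs of the class. A summed level does not separate fewer cells with the transcript from less transcript per cell.

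The erythroid class had the highest level of both metallothioneins in run 1. *Mt1* stood at 505 CPM (486 to 525) in PEP-WT and 774 CPM (743 to 805) in PEP-619WW erythroid barcodes, and *Mt2* at 543 (523 to 563) and 737 (707 to 768). Next came the monocyte or macrophage and CD8 T classes, where the PEP-WT levels of *Mt1*, 89.9 (85.3 to 94.8) and 91.7 CPM (86.7 to 96.9), could not be ordered within their counting intervals. CD4 T and B barcodes of PEP-WT were lowest, at 45.4 (38.4 to 53.2) and 40.1 CPM (38.1 to 42.3) of *Mt1*, and their intervals overlapped too. Plasma cell barcodes, gated on at least 20 UMIs of *Jchain* and on *Sdc1*, had 107 CPM of *Mt1* in PEP-WT and 293 CPM in PEP-619WW. Neutrophil barcodes, gated on *Ly6g* and *S100a8*, had 47.4 and 60.8 CPM.

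The erythroid class was also the highest of the 5 in the share of barcodes with a UMI, and B barcodes were the lowest. *Mt1* was found in 69.7% of PEP-WT and 81.0% of PEP-619WW erythroid barcodes, and in 5.15% and 12.98% of B barcodes. After each barcode was thinned to 1000 UMIs, these shares were 33.6%, 48.7%, 1.20% and 4.03%. No class known to lack the metallothioneins was available to measure free RNA. Among the gates and the splits given below with at least 100 UMIs of *Mt1*, the lowest level was 7.37 CPM. It was that of PEP-WT B barcodes with no other gate and fewer than 20 UMIs of *Jchain*. Sets with fewer UMIs went lower, such as 4.91 CPM from 4 UMIs in PEP-WT CD4 T barcodes without *Mki67*.

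The balance of the 2 metallothioneins also set the erythroid class apart. For each UMI of *Mt1* there were 1.07 UMIs of *Mt2* (1.02 to 1.13) in PEP-WT and 0.952 (0.899 to 1.01) in PEP-619WW erythroid barcodes. In CD8 T barcodes the ratio was 0.344 (0.308 to 0.384) and 0.327 (0.303 to 0.352), and in monocyte or macrophage barcodes 0.283 (0.253 to 0.317) and 0.248 (0.225 to 0.272). In CD4 T barcodes it was 0.18 (0.115 to 0.272) and 0.531 (0.434 to 0.646), and in B barcodes 0.474 (0.432 to 0.520) and 0.301 (0.279 to 0.324). The ratio is compared only between classes, not read as a level of one gene over the other.

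**Figure D1:**
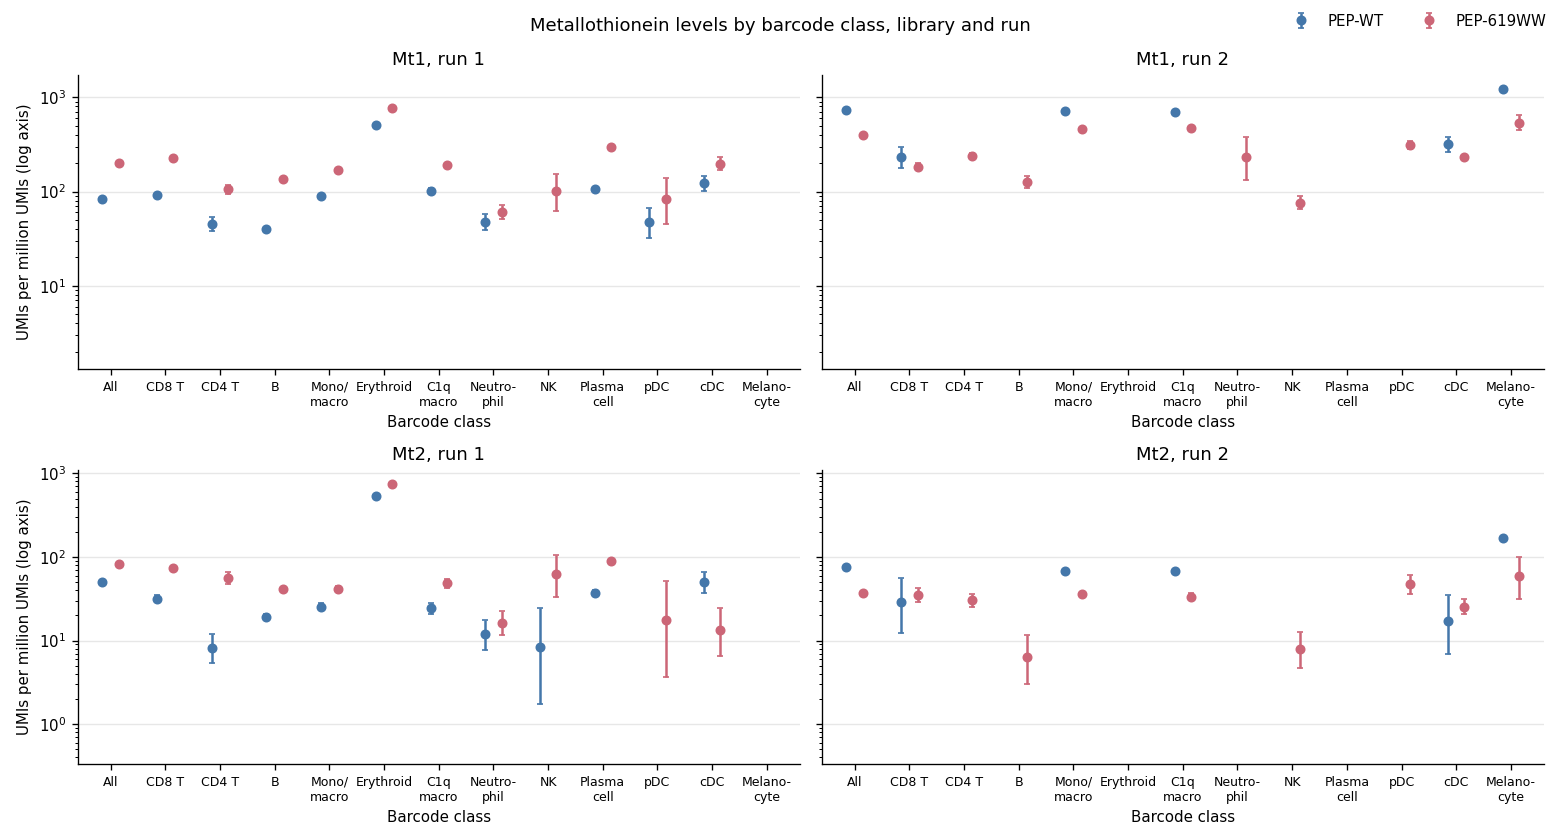
Levels of *Mt1* and *Mt2* in CPM (log axis) by gate and library, with exact 95% Poisson intervals, for gates with at least 20 barcodes and 3 UMIs. In run 1 the PEP-619WW points of *Mt1* lie above those of PEP-WT in all 5 classes, and in run 2 the monocyte or macrophage point of PEP-WT lies at 706 CPM above that of PEP-619WW at 465 CPM.

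*Mt1* was higher in PEP-619WW than in PEP-WT in all 5 classes of run 1. Over all barcodes its level was 83.9 CPM from 6537 UMIs in PEP-WT and 202 CPM from 11478 UMIs in PEP-619WW, a ratio of 2.41 (2.34 to 2.49). *Mt2* stood at 49.7 and 82.1 CPM, a ratio of 1.65 (1.58 to 1.72). Without the erythroid barcodes, which held 73.6% of the *Mt2* UMIs of PEP-WT and 49.4% of those of PEP-619WW, the log2 ratio of *Mt2* was 1.64 in place of 0.72. *Mt1* was the 1 member of 4 past 2-fold over all barcodes, and without barcodes of at least 20 *Jchain* UMIs it was not, with log2 ratios of 0.88 for *Mt1* and 0.48 for *Mt2*. Of 11128 genes with at least 100 UMIs in both libraries, 1.06% were past 2-fold in either direction, and 29 had a higher ratio than *Mt1*.

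In CD8 T barcodes *Mt1* had 1272 UMIs in PEP-WT and 2848 in PEP-619WW, or 91.7 and 227 CPM. The ratio was 2.47 (2.31 to 2.64). *Mt2* stood at 31.6 and 74.1 CPM, a ratio of 2.35 (2.09 to 2.63). *Mt1* was found in 25.6% of PEP-WT and 56.0% of PEP-619WW CD8 T barcodes, and in 5.29% and 15.2% after thinning to 1000 UMIs. Both metallothioneins, 2 of the 3 members with 100 UMIs in each library, were past 2-fold, against 0.599% of 8013 genes. Only 6 of those genes had a higher ratio than *Mt1*, and 7 than *Mt2*. In CD8 T barcodes that met no other gate and had fewer than 20 UMIs of *Jchain*, the log2 ratio was 1.25 for *Mt1* and 1.42 for *Mt2*. Leaving out only the barcodes of at least 20 *Jchain* UMIs gave 1.16 and 1.00, the latter just under 2-fold.

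In CD4 T barcodes *Mt1* had 150 UMIs in PEP-WT and 294 in PEP-619WW, or 45.4 and 105 CPM. The ratio was 2.32 (1.90 to 2.85). *Mt1*, the 1 member with enough UMIs, was past 2-fold, against 0.463% of 3671 genes. *Mt2* had 27 UMIs in PEP-WT and 156 in PEP-619WW, a ratio of 6.84 (4.53 to 10.7). This rested on few cells, since 4 PEP-619WW barcodes with at least 10 UMIs of *Mt2* held 66.0% of its *Mt2* UMIs and 33.0% of its *Mt1* UMIs. Without them the log2 ratio was 0.73 for *Mt1*, in place of 1.21, and 1.31 for *Mt2*, in place of 2.77, a cut made on *Mt2* itself. Stricter gates gave 0.75 and 1.76, and leaving out barcodes with at least 20 *Jchain* UMIs gave 0.81 and 1.12. Thinned to 1000 UMIs, the log2 ratio of *Mt1* was 1.45 as the mean over all draws, and 3.36 in a single draw that kept few UMIs.

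With all barcodes counted, B barcodes had the largest ratio of *Mt1* among the 5 classes. It had 1428 UMIs (40.1 CPM) in PEP-WT and 2933 (136 CPM) in PEP-619WW, a ratio of 3.39 (3.19 to 3.62). *Mt2* stood at 19.0 and 41.0 CPM, a ratio of 2.15 (1.95 to 2.38). Past 2-fold were 2 of the 4 members, both metallothioneins, against 0.924% of 9308 genes. Levels and ratio moved with which barcodes were counted as B. In PEP-WT 54 of the 6937 barcodes also met the erythroid gate, and held 38.2% of the *Mt1* and 67.2% of the *Mt2* UMIs. In PEP-619WW 26 of 3144 did, with 8.22% and 26.0%. B barcodes that met no other gate had 17.2 and 105 CPM of *Mt1* and 5.72 and 24.4 CPM of *Mt2*. Among B barcodes that met no other gate the log2 ratio of *Mt1* was 2.61 in place of 1.76, and that of *Mt2* 2.09 in place of 1.11. Without barcodes with at least 20 UMIs of *Jchain*, the joining chain of secreted immunoglobulin, these were 0.67 and 0.60, and the *Mt1* value then lay below those of CD8 T (1.16), CD4 T (0.81) and erythroid barcodes (0.75). With both limits together they were 1.33 and 1.63. Thinning gave 2.00 for *Mt1* as the mean over all draws, and leaving out erythroid barcodes 2.27 for *Mt2*.

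In monocyte or macrophage barcodes *Mt1* stood at 89.9 and 169 CPM, a ratio of 1.88 (1.76 to 2.01). *Mt2* stood at 25.5 and 41.9 CPM, a ratio of 1.65 (1.44 to 1.88). With all barcodes counted none of the 4 members was past 2-fold here, and 0.73% of 8215 genes were. The log2 ratio of *Mt1* was 1.05, past 2-fold, without erythroid barcodes. It was 0.80 with exactly 1 gate and 0.48 without barcodes of at least 20 *Jchain* UMIs. The direction of *Mt2* depended on which barcodes were counted, with a log2 ratio of 0.72 with all and 1.40 without erythroid barcodes. It was -0.32 without barcodes of at least 20 *Jchain* UMIs, which left 1438 of 1600 and 1085 of 1236. The 36 PEP-WT barcodes that also met the erythroid gate held 60.7% of the *Mt2* UMIs, and the 21 of PEP-619WW held 36.7%. Among barcodes with exactly 1 gate the log2 ratio of *Mt2* was positive, with and without the *Jchain* limit, as listed in the last section.

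With all barcodes counted, erythroid barcodes had the smallest ratios of the 5 classes, 1.53 (1.45 to 1.62) for *Mt1* and 1.36 (1.28 to 1.43) for *Mt2*. Without barcodes of at least 20 *Jchain* UMIs the log2 ratio of *Mt1* was 0.75, above the 0.48 of monocyte or macrophage and the 0.67 of B barcodes, and with exactly 1 gate it was 0.81 beside 0.80 in monocyte or macrophage barcodes. None of the 3 members with enough UMIs was past 2-fold, and 0.586% of 3922 genes were. Without the barcodes with at least 10 UMIs of *Mt2* the log2 ratio of *Mt2* was 0.0059. Those barcodes held 80.5% of the *Mt2* UMIs of the class in PEP-WT and 89.8% in PEP-619WW. The cut is made on the value compared, so it cannot show whether *Mt2* differs in the class. Of 3658 genes compared in CD8 T, CD4 T and B barcodes, 3 were at least 2-fold higher in PEP-619WW in each, namely *Mt1*, *Fam214a* and the immunoglobulin gene *Ighg2b*. *Fam214a* and *Ighg2b* were so in all 5 classes, and were named after their values were seen.

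Transcripts of other cells differed between the genotypes in these gates too. All 5 erythroid markers (*Car1*, *Ermap*, *Car2*, *Hba-a1*, *Hbb-bs*) were detected in each class of run 1. Their sum was higher in PEP-WT, with 1160.1 against 265 CPM in CD8 T, 1540.1 against 109 in CD4 T, 2491 against 365 in B and 1423 against 633 in monocyte or macrophage barcodes. The 4 plasma cell markers (*Jchain*, *Sdc1*, *Mzb1*, *Xbp1*) were higher in PEP-619WW, with 3007 against 4468, 3035 against 3212, 3952 against 6064 and 3520 against 4469 CPM in the same order of classes. Beyond the values given without such barcodes, the part of free RNA and doublets in the metallothionein levels was not tested.

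Splits of each class by 1 gene, chosen after the data were seen and limited to barcodes that met 1 gate, showed where the metallothionein transcripts lay. In CD8 T barcodes with *Gzmb*, the cytotoxic granule protease of effector cells, *Mt1* stood at 103 CPM in PEP-WT and 239 in PEP-619WW, a ratio of 2.32 (2.11 to 2.57). Without *Gzmb* it stood at 48.3 and 62.1 CPM, a ratio of 1.28 (0.882 to 1.84) from 107 and 44 UMIs. *Mt2* stood at 27.2 and 68.5 CPM with *Gzmb*, a ratio of 2.52 (2.08 to 3.06). Without *Gzmb*, *Mt2* stood at 14.9 and 28.2 CPM, a ratio of 1.89 (1.03 to 3.40) from 33 and 20 UMIs. Barcodes with *Gzmb* made up 64.2% of PEP-WT and 87.2% of PEP-619WW CD8 T barcodes. The median depth of all CD8 T barcodes was 6038 and 8660 UMIs, and its part in these shares was not tested. The difference between the ratios with and without *Gzmb* was not tested.

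*Mki67*, a marker of dividing cells, went with more *Mt1* in the CD8 T, CD4 T and B barcodes of both run 1 libraries. Barcodes with *Mki67* were also deeper. In PEP-WT their medians were 9076.5 against 4005 UMIs in CD8 T, 9416 against 3666 in CD4 T and 10983 against 2534.5 in B. The part of depth was not tested. With *Mki67*, CD8 T barcodes had 118 and 270 CPM of *Mt1*, and without it 50.04 and 152. The ratios were 2.28 (2.05 to 2.54) and 3.03 (2.54 to 3.63). B barcodes had 36.5 and 200 CPM with *Mki67*, and 8.06 and 42.8 without. CD4 T barcodes had 49.99 and 116 CPM with it, and 4.91 and 26.0 without, the latter from 4 and 24 UMIs. Erythroid barcodes had 566 (540 to 593) and 1006 CPM (957 to 1058) with *Mki67*, and 685 (585 to 798) and 1024 (857 to 1215) without. These intervals overlapped in both libraries, so the levels of *Mt1* could not be ordered. *Mt2* in PEP-WT erythroid barcodes was lower with *Mki67*, at 634 (606 to 662) against 899 CPM (784 to 1026). In PEP-619WW its intervals overlapped, at 963 (915 to 1013) and 1141 (964 to 1341). In PEP-WT B barcodes *Mt2* could not be ordered either, at 6.39 (4.83 to 8.30) and 5.41 CPM (4.40 to 6.58). Monocyte or macrophage barcodes had more *Mt1* with *Mki67* in run 1, with 108 and 198 against 59.9 and 103 CPM. They had less in run 2, with 648 and 438 against 750.2 and 488.

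Among B barcodes *Mt1* lay mostly in those with much *Jchain*. The 299 PEP-WT and 237 PEP-619WW barcodes with at least 20 UMIs of *Jchain*, 4.67% and 8.37% of the class, had 58.3 and 296 CPM, a ratio of 5.08 (4.49 to 5.76). The others had 7.37 and 18.6 CPM, a ratio of 2.52 (2.04 to 3.12). *Mt2* stood at 19.7 and 61.9 CPM in the first set and 2.37 and 7.33 in the second.

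Monocyte or macrophage barcodes with *C1qa*, a complement gene of tissue macrophages, had 92.7 and 206 CPM of *Mt1*, a ratio of 2.23 (1.94 to 2.56). Those without had 67.6 and 88.3 CPM, a ratio of 1.31 (1.13 to 1.51). Without *Ly6c2*, a gene of inflammatory monocytes, the levels were 83.0 and 86.0 CPM, a ratio of 1.04 (0.566 to 1.89) from 25 and 24 UMIs. With at least 10 UMIs of *S100a8*, a calprotectin gene of neutrophils and monocytes, the levels were 50.2 and 71.8 CPM. The sum of 4 neutrophil markers in the whole class was 23856 CPM in PEP-WT and 37642 in PEP-619WW.

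Within the erythroid class *Mt1* was lower in the barcodes rich in hemoglobin. With at least 100 UMIs of *Hbb-bs*, the adult beta globin, *Mt1* stood at 127 and 380 CPM, and below that at 689 and 1230 CPM. *Mt2* behaved alike, with 130 and 380 CPM against 786 and 1188. In both sets the PEP-619WW level was the higher.

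**Figure D2:**
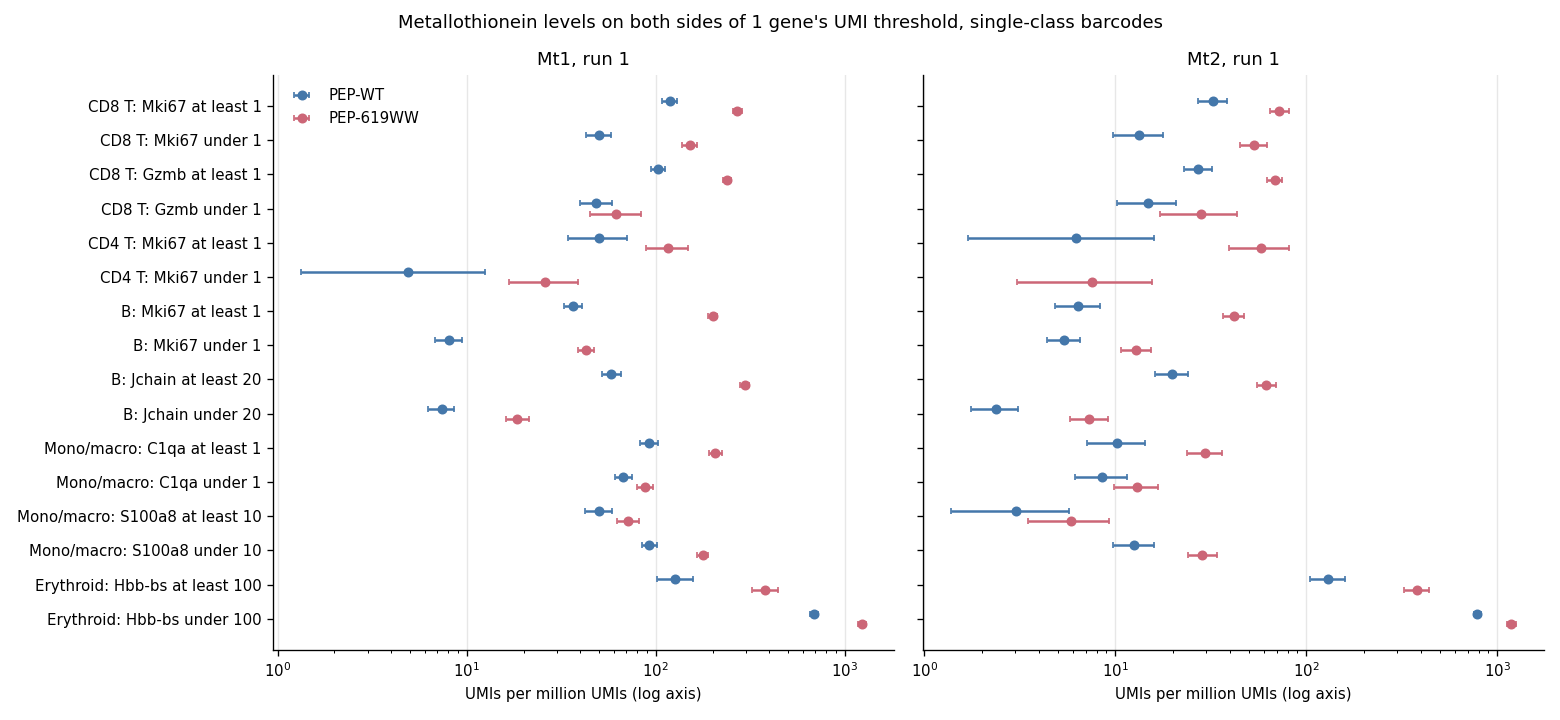
*Mt1* and *Mt2* levels (horizontal log axis, CPM, exact 95% Poisson intervals) in run 1 barcodes that met 1 class gate, on both sides of the UMI threshold of 1 gene. In every row with both points PEP-619WW lies to the right of PEP-WT, with the narrowest gap of *Mt1* among the rows drawn in CD8 T barcodes without *Gzmb* (48.3 and 62.1 CPM), and no *Mt2* point is drawn for PEP-WT CD4 T barcodes without *Mki67*, which had 0 UMIs.

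*Slc30a1*, the zinc exporter gene, was sparse and showed a different pattern over the classes. In run 1 it stood at 8.09 CPM from 630 UMIs in PEP-WT and 8.07 CPM from 458 UMIs in PEP-619WW, a ratio of 0.998 (0.883 to 1.13). It was highest in monocyte or macrophage barcodes, at 21.8 (19.6 to 24.3) and 18.0 CPM (15.8 to 20.5), a ratio of 0.827 (0.698 to 0.979). Barcodes with at least 10 UMIs of C1q genes had 27.9 and 25.4 CPM. In CD8 T, CD4 T and B barcodes its levels lay between 5.53 CPM (4.58 to 6.62) in B and 10.0 CPM (6.66 to 14.5) in CD4 T barcodes, both of PEP-619WW, whose intervals did not overlap. Erythroid barcodes, which were richest in *Mt1* and *Mt2*, had 6.28 CPM from 33 UMIs and 2.88 CPM from 9.

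*Mtf1*, the zinc sensor gene, varied least. In run 1 it stood at 21.0 CPM (19.99 to 22.0) in PEP-WT and 22.5 (21.3 to 23.8) in PEP-619WW, a ratio of 1.07 (0.996 to 1.15). The levels in CD8 T barcodes were 21.1 and 23.2 CPM, and those in B barcodes 20.2 and 19.6. Monocyte or macrophage barcodes had 23.6 and 28.5 CPM, a ratio of 1.21 (1.04 to 1.40). It was highest in erythroid barcodes, at 39.8 (34.6 to 45.6) and 49.96 CPM (42.4 to 58.4). The ratio there was 1.26 (1.01 to 1.55), so that neither *Mtf1* nor *Slc30a1* was past 2-fold in any class where it had 100 UMIs in both libraries.

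**Figure D3:**
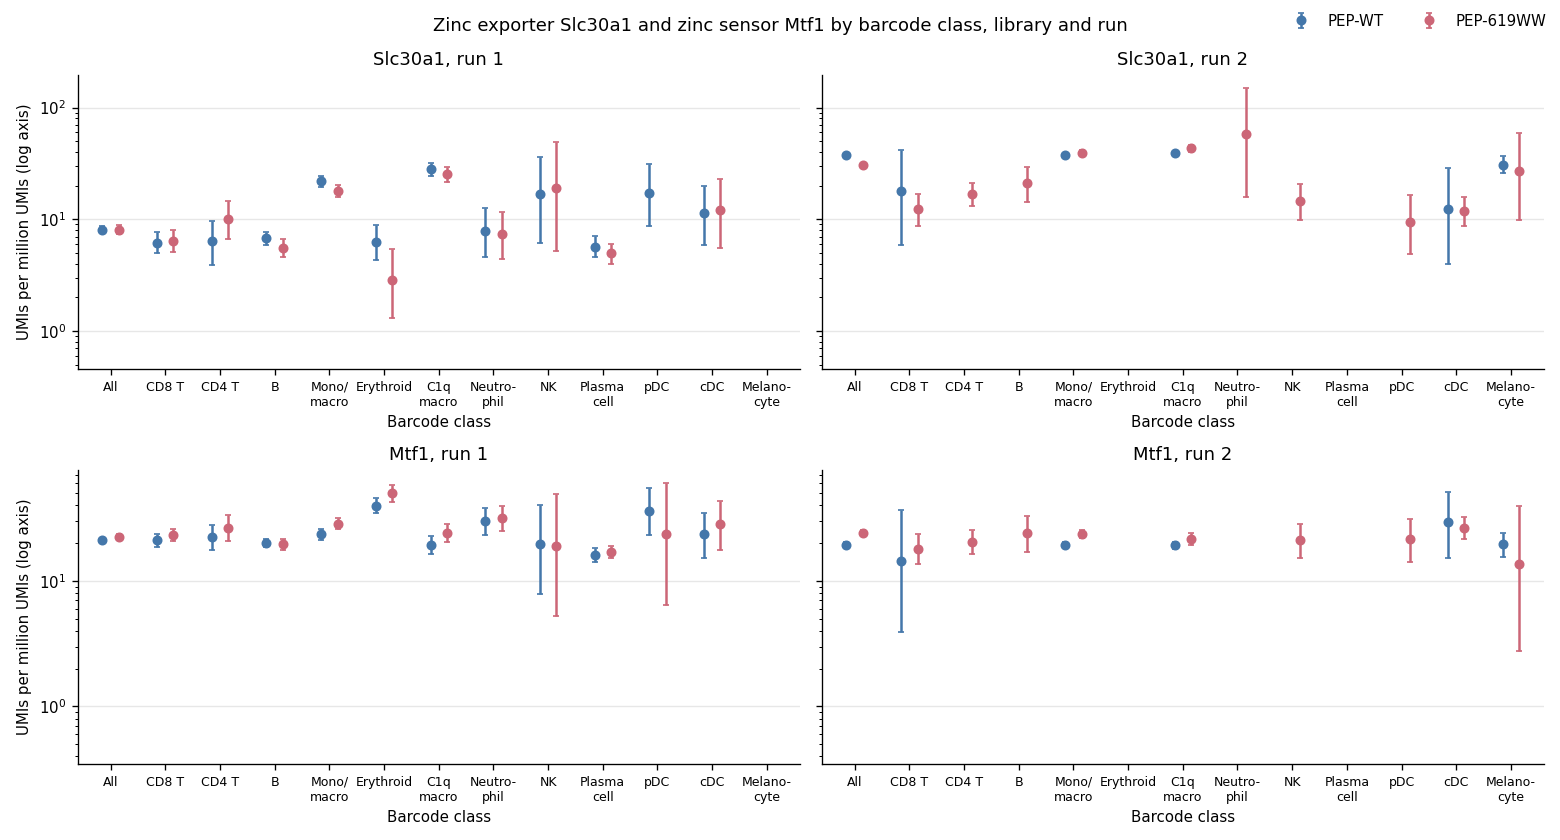
Levels of *Slc30a1* and *Mtf1* in CPM (log axis) by gate and library, with exact 95% Poisson intervals, for gates with at least 20 barcodes and 3 UMIs. In run 1 *Slc30a1* is highest in C1q macrophage barcodes (27.9 and 25.4 CPM), and *Mtf1* is highest in erythroid barcodes (39.8 and 49.96 CPM). Monocyte or macrophage barcodes come next for *Slc30a1* in PEP-WT. In PEP-619WW the natural killer (NK) point, at 19.1 CPM from 4 UMIs (5.21 to 49.0), lies above their 18.0 CPM.

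In run 2 the metallothioneins were lower in PEP-619WW. Over all barcodes *Mt1* stood at 735 CPM (729 to 742) in PEP-WT and 397 (392 to 403) in PEP-619WW, a ratio of 0.541 (0.532 to 0.549). *Mt2* stood at 75.9 and 37.4 CPM, a ratio of 0.492 (0.468 to 0.518). *Mt2* was the 1 member of 4 past 2-fold, where 16.9% of 10466 genes were. Without barcodes with at least 10 UMIs of *Mt2* it was no longer past 2-fold, as listed in the last section. Those barcodes held 39.2% of its UMIs in PEP-WT and 31.7% in PEP-619WW, and the cut is made on the value compared. The median log2 ratio of all genes was 0.16, and relative to it *Mt1* was at -1.04 and *Mt2* at -1.18.

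Monocyte or macrophage barcodes were the 1 class of run 2 with many barcodes in both libraries, 6488 and 4919. *Mt1* had 43822 UMIs (706 CPM) in PEP-WT and 15918 (465 CPM) in PEP-619WW, a ratio of 0.658 (0.646 to 0.670). *Mt2* stood at 67.4 and 35.8 CPM, a ratio of 0.532 (0.499 to 0.567). None of the 4 members was past 2-fold, and 13.2% of 9707 genes were. *Mt1* was found in 83.4% and 61.3% of the barcodes, and in 40.4% and 27.0% after thinning. *Slc30a1* stood at 37.6 and 39.3 CPM, a ratio of 1.05 (0.977 to 1.12), and *Mtf1* at 19.3 and 23.8, a ratio of 1.23 (1.12 to 1.35).

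The gate did not hold the same cells in the 2 libraries of run 2. The sum of 4 C1q macrophage markers was 7200 CPM in PEP-WT and 2302 in PEP-619WW. The 5 melanocyte markers summed to 146 and 17.7 CPM, and the 4 markers of conventional dendritic cells to 873 and 3088. *C1qa* was present in 87.4% and 37.0% of barcodes, and *Ly6c2* in 5.25% and 40.7%. The direction was the same within each side. *Mt1* stood at 693 and 510 CPM with *C1qa* and at 888 and 461 without, ratios of 0.735 and 0.519. With *Ly6c2* the levels were 643 and 316 CPM, and without it 710 and 592.

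Melanocyte barcodes of run 2 had 1213 CPM of *Mt1* (1180 to 1247) in the 249 of PEP-WT, the highest level of any gate and library, and 537 CPM (445 to 642) in the 25 of PEP-619WW. Lymphocytes of run 2 were found mainly in PEP-619WW, where *Mt1* stood at 184 CPM in 394 CD8 T, 238 in 438 CD4 T and 126 in 503 B barcodes. The 28, 12 and 2 such barcodes of PEP-WT were too few to compare. In monocyte or macrophage barcodes of run 2 there were 0.0954 UMIs of *Mt2* for each of *Mt1* in PEP-WT (0.0924 to 0.0985) and 0.0771 in PEP-619WW (0.0727 to 0.0818), both lower than in run 1.

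Barcodes with at least 10 UMIs of *Mt2* were described because the study's T cell gates left them out. They numbered 107 in PEP-WT (0.722%, 0.592 to 0.872) and 112 in PEP-619WW (1.31%, 1.08 to 1.57) of run 1, and 96 (1.01%) and 40 (0.363%) in run 2. These barcodes held 64.2% and 62.6% of all *Mt2* UMIs of run 1, and 34.5% and 33.6% of the *Mt1* UMIs. A large share of *Mt2* follows from choosing barcodes by their *Mt2* UMIs. *Mt1* was detected in 106 of 107, 110 of 112, 96 of 96 and 40 of 40. The largest count of *Mt2* in 1 barcode was 56, 95, 169 and 51 UMIs. At the threshold, 7, 8, 12 and 8 barcodes had exactly 9 UMIs and 7, 12, 12 and 7 had exactly 10.

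They were deeply sequenced in run 1, which a limit set in UMIs favors. Their median depth was 28276 UMIs in PEP-WT and 30427 in PEP-619WW, at the 98.0 and 96.9 percentiles of their libraries, and 15369.5 and 7470 in run 2. Without the 5% of barcodes with the most UMIs, the shares of run 1 were 0.135% and 0.503%. Per 10000 UMIs of the barcode the median was 8.10, 8.03, 11.6 and 20.3 UMIs of *Mt2*.

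In run 1 most of them were erythroid in PEP-WT, and in PEP-619WW the erythroid and plasma cell gates took similar numbers. The erythroid gate took 97 of the 107 PEP-WT barcodes and 56 of the 112 PEP-619WW barcodes, or 26.0% and 33.3% of the class. The plasma cell gate took 11 and 51, or 1.29% (0.644 to 2.29) and 6.12% (4.59 to 7.97) of its class. The B gate took 20 and 27, of which 17 and 6 were also erythroid. None of the 5 classes took 6 and 26. The erythroid barcodes with at least 10 UMIs of *Mt2* had less of the summed erythroid markers, globins included, than the other erythroid barcodes, 3736 against 42175 CPM in PEP-WT and 5832 against 26682 in PEP-619WW.

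The genes that went with high *Mt2* differed by class, as descriptions of barcodes chosen for *Mt2*. Among PEP-WT B barcodes of run 1 the highest ratio was that of the carbonic anhydrase gene *Car1*, at 1238 CPM against 5.70 in the other B barcodes. Of the 20 such barcodes 17 also met the erythroid gate, which is set on *Car1* and *Ermap*. The ratios of this set are therefore not those of B cells alone. In the same 20 barcodes *Mt1* stood at 715 against 27.2 CPM. *Gclm*, a subunit of the enzyme that makes the glutathione precursor, stood at 293 against 29.0. The plasma cell markers of PEP-619WW B barcodes summed to 12131 CPM with high *Mt2* and 5789 without, and the B markers to 586 and 3212.

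In erythroid barcodes single immunoglobulin genes led, *Ighg1* in PEP-WT at 206 against 9.37 CPM and *Igkv12-44* in PEP-619WW at 74.0 against 2.02. The summed plasma cell markers went the other way, at 1337 against 2567 CPM in PEP-WT and 2529 against 4374 in PEP-619WW. The folate carrier gene *Slc19a1* was among the 10 leading genes of both, at 45.1 against 11.9 CPM in PEP-WT and 50.6 against 10.1 in PEP-619WW. The copper transporter gene *Atp7b* was among them in PEP-WT alone, at 40.3 against 11.5 CPM. In run 2 the leading genes of the 71 PEP-WT monocyte or macrophage barcodes were melanocytic. *Mlana* stood at 286 against 18.0 CPM and *Dct* at 652 against 56.6. The 27 such PEP-619WW barcodes were led by *Mt1* itself, at 4985 against 432 CPM, and by *Hmox1*, the heme-degrading enzyme induced by oxidative stress, at 5516 against 739. The other leading genes were *Mmp12*, *Ndrg1*, *Slc2a1*, *Bnip3*, *Arg1*, *Ero1l*, *Hspa1a* and *Cd36*, with *Slc2a1*, which encodes a glucose transporter, at 539 against 146 CPM.

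The T cell gate with fewer than 10 UMIs of *Mt2* removed few barcodes but many metallothionein transcripts. It takes out the barcodes with the most *Mt2* UMIs, so a large share of these UMIs follows from the choice. Of CD8 T barcodes of run 1 the gate removed 7 of 1439 in PEP-WT (0.486%) and 15 of 953 in PEP-619WW (1.57%). With them went 13.6% and 20.2% of the *Mt1* UMIs and 35.8% and 36.5% of the *Mt2* UMIs. All 7 of the PEP-WT barcodes and 10 of the 15 PEP-619WW barcodes also met the B, monocyte or macrophage, or erythroid gate. After removal *Mt1* stood at 81.0 CPM in PEP-WT and 192 in PEP-619WW CD8 T barcodes. Of CD4 T barcodes it removed 0 of 361 and 4 of 261, 3 of these plasma cell barcodes, leaving 45.4 and 75.3 CPM of *Mt1*. In run 2 it removed 3 of 394 CD8 T and 2 of 438 CD4 T barcodes of PEP-619WW, and 0 in PEP-WT.

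**Figure D4:**
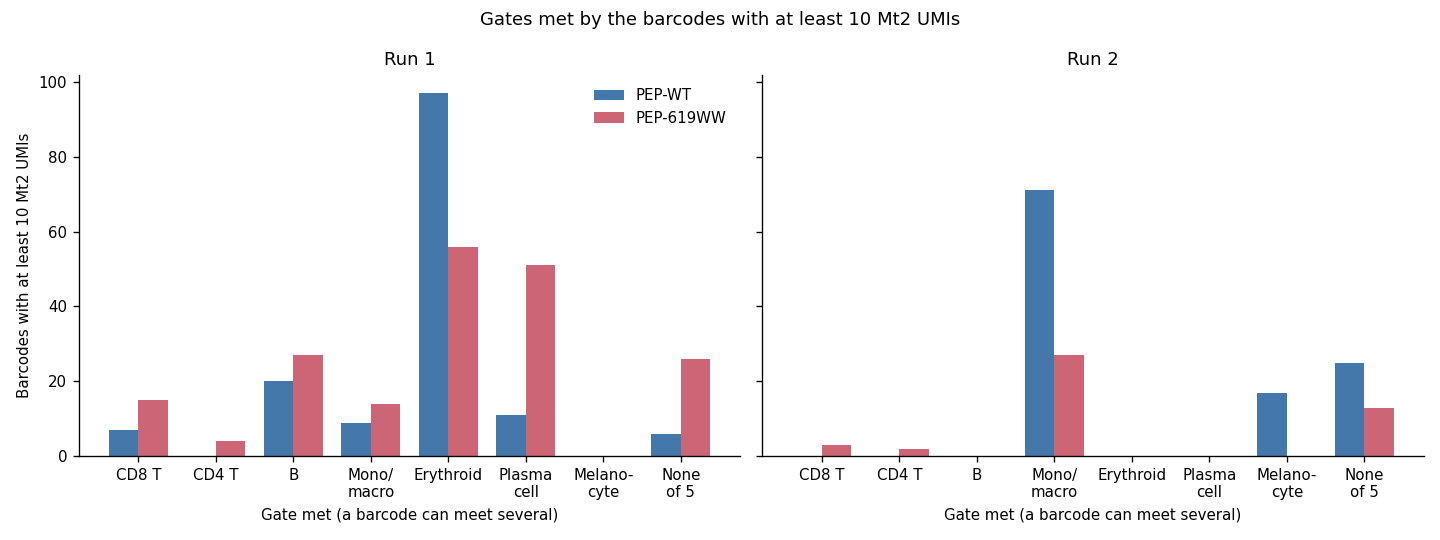
Number of barcodes with at least 10 UMIs of *Mt2* that met each gate, by run and library, where a barcode can meet several gates and the last pair of bars holds those in none of the 5 classes. The erythroid gate leads in run 1, with 97 PEP-WT and 56 PEP-619WW barcodes, the plasma cell gate holds 11 and 51, and in run 2 the monocyte or macrophage gate leads with 71 and 27.

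The wider zinc and stress genes are given for run 1 by the count past 2-fold, where 0.599% of all genes in CD8 T, 0.924% in B and 0.73% in monocyte or macrophage barcodes were, so that 0 in lists of this size is near the background. Of the exporters (*Slc30a1* to *Slc30a10*) with 100 UMIs in both libraries, 0 of 4 were past 2-fold in CD8 T, 0 of 6 in B and 0 of 4 in monocyte or macrophage barcodes. Of the importers (*Slc39a1* to *Slc39a14*), 0 of 7, 0 of 9 and 0 of 7 were. Their median log2 ratios were 0.34, 0.39 and 0.21, against -0.01, 0.01 and -0.07 over all genes. *Slc39a14*, which imports zinc and iron, was the highest importer in CD8 T barcodes, at 7.78 and 12.02 CPM, a log2 ratio of 0.63 (0.26 to 1.00). *Mt3*, the metallothionein first known from brain, stood at 17.1 and 22.3 CPM there, a log2 ratio of 0.38 (0.13 to 0.64).

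Other genes described as MTF1 targets had ratios on either side of 1. In CD8 T barcodes the log2 ratios of *Ndrg1*, *Gclc* and *Slc39a10* were 0.21, 0.11 and 0.07, all with intervals that held 0. *Selenoh*, a redox selenoprotein gene, had a log2 ratio of -0.38 (-0.46 to -0.31) in CD8 T, -0.24 in B and -0.38 in monocyte or macrophage barcodes. *Csrp1* had -0.22, -0.08 and -0.46. Of this list 0 of 5, 0 of 4 and 0 of 4 compared genes were past 2-fold. Of the copper handling genes 0 of 6, 0 of 7 and 0 of 7 were, with *Sod1*, the copper and zinc superoxide dismutase, at 97.0 and 122 CPM in CD8 T barcodes.

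Of the glucocorticoid response genes 0 of 6, 0 of 7 and 1 of 7 were past 2-fold, the last being *Klf9* at 8.85 and 19.7 CPM in monocyte or macrophage barcodes. *Fkbp5*, a feedback regulator of the glucocorticoid receptor, had log2 ratios of 0.19 (0.06 to 0.32), 0.67 (0.53 to 0.80) and 0.58 (0.44 to 0.73) in CD8 T, B and monocyte or macrophage barcodes. Of the oxidative stress genes 0 of 6, 0 of 6 and 0 of 7 were past 2-fold, with *Gclm* at -0.36, -0.31 and -0.22. Heat shock genes were past 2-fold in 0 of 4 in each, and their medians were -0.32, -0.52 and -0.48. *Hsph1*, a heat shock co-chaperone gene, stood at 27.8 and 14.3 CPM in monocyte or macrophage barcodes, a log2 ratio of -0.96 (-1.21 to -0.71).

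Monocyte or macrophage barcodes of run 2 gave more genes past 2-fold, where 13.2% of all genes were and 8.86% were at least 2-fold higher in PEP-619WW, so that 1 gene of a list of this size is near the background. Higher in PEP-619WW were *Slc30a4* of the 6 exporters (3.51 and 9.40 CPM), *Slc39a14* of the 9 importers (17.3 and 39.1 CPM) and *Slc7a11* of the 8 oxidative stress genes (15.5 and 49.6 CPM). *Per1*, *Dusp1* and *Ddit4* of the 7 glucocorticoid genes and *Hspa1a* and *Hspa1b* of the 6 heat shock genes were also higher. Lower were *Selenoh* of the 5 other MTF1 targets (154 and 57.4 CPM) and *Prdx1*, a peroxiredoxin gene, at 1832 and 872 CPM. *Hmox1* stood at 1181 and 774 CPM, a log2 ratio of -0.61, beside -0.60 for *Mt1*.

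**Figure D5:**
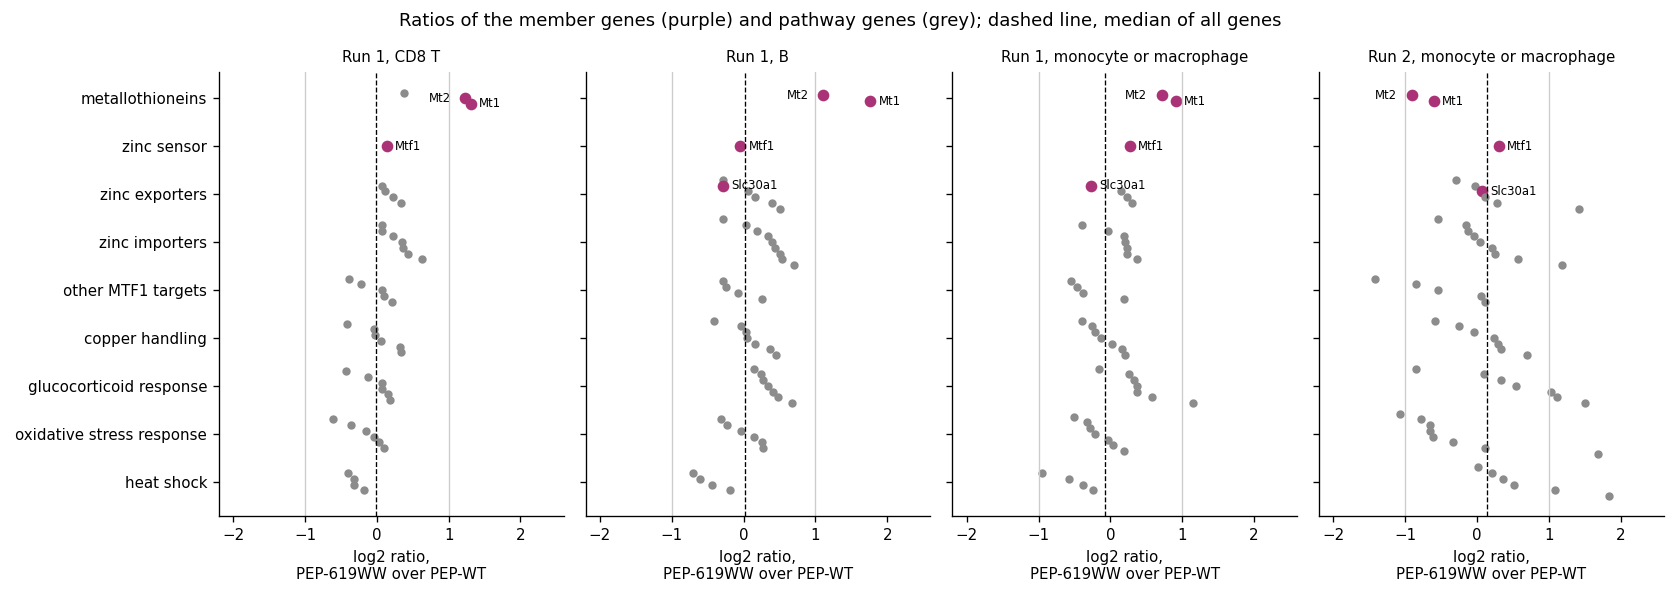
log2 ratio of PEP-619WW over PEP-WT for each compared gene of the zinc, copper and stress lists in CD8 T, B and monocyte or macrophage barcodes of run 1 and monocyte or macrophage barcodes of run 2, with the dashed line at the median of all genes and grey lines at 2-fold. *Mt1* and *Mt2* stand to the right of the other genes in CD8 T and B barcodes of run 1, and to the left of the median in run 2.

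The genes whose levels followed the metallothioneins most closely were ranked over the gates with at least 50 barcodes in both genotypes, 9 gates with 18 points in run 1 and 2 gates with 4 points in run 2. The gates share barcodes and libraries, so the correlations are descriptions. Of 9084 genes ranked by the lower Pearson r of log2(CPM + 1) of both runs, the first for *Mt1* was *Mt2*, with r = 0.88 in run 1 and 0.995 in run 2. Next were *Eci2* (0.85 in run 1), *Alms1* (0.85), *Mzt2* (0.84) and *Uqcr11* (0.84). The first for *Mt2* were *Pla2g12a* (0.92), *Asns* (0.90), *Cdr2* (0.90), *Fech* (0.89) and *Gstm5* (0.89). *Fech* encodes ferrochelatase, which puts iron into heme. Ranked by run 1 alone, which was tried after the data were seen, *Nploc4* came first for *Mt1* (0.91 in run 1 and -0.96 over the 4 points of run 2), *Mt2* came next, and *Snhg3* was among the first 5 for both *Mt1* (0.86) and *Mt2* (0.90).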

How the data were processed

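Single cell gene counts were analysed from 1 sample per genotype, each with 2 runs deposited by the authors as UMI counts per gene and barcode. The methods describe pooled spleens, and whether both runs come from them is not stated. The authors aligned 10x 3' reads to mm10 with Cell Ranger (version 6.0.0 per the submitters' processing notes, with a later release named in the methods), and the deposited values were whole numbers with no normalization. The barcodes of run 2 are the cells called by Cell Ranger, by their number, and for run 1 no source used here says how barcodes were filtered. Gene IDs were paired with symbols through a table of gene names, and 32158 of 32285 matched. The total per library was 55504449 to 77916082 UMIs.

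The 5 classes were gated on the UMIs of marker genes, all barcodes were kept, and no doublet caller was run. Leaving out the 5% of barcodes with the most UMIs, or those that met several gates, were alternatives. UMIs were summed per class and library and divided by the class total to give CPM. Levels carry exact Poisson intervals, shares exact Clopper-Pearson intervals, and ratios the exact conditional interval of 2 Poisson counts, all at 95%. They cover counting error only. Genes with at least 100 UMIs in both libraries were compared, and 2-fold was the limit for naming a difference. Shares were also computed after each barcode was thinned to 1000 UMIs. The script was tested on simulated data. Python 3.11.15, numpy 2.4.6, scipy 1.17.1 and matplotlib 3.10.9 were used.

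The genes named were the 4 members, the listed zinc, copper and stress genes, the 5 genes most like *Mt1* and *Mt2*, the 10 leading genes of barcodes with at least 10 UMIs of *Mt2* in classes with 20 or more of them, and the gate and marker genes. Members and lists were chosen with earlier results of these data known. The splits of a class by 1 gene were added after the data were seen. Alternatives covered gates, depth, cell filters, totals, centring and weighting of barcodes. A marker gene and a split gene chosen at first are not reported here.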

Additional observations from a re-analysis of the deposited data

Results flagged for a closer look

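The metallothioneins stood out because the 2 runs gave opposite directions for PEP-619WW over PEP-WT. It is not stated whether both runs come from the same tissue, and run 2 held 249 melanocyte and 0 erythroid barcodes in PEP-WT. Over all barcodes the log2 ratio of *Mt1*, PEP-619WW over PEP-WT, was 1.27 in run 1 and -0.89 in run 2. In monocyte or macrophage barcodes it was 0.91 and -0.60. For *Mt2* the log2 ratio over all barcodes was 0.72 in run 1 and -1.02 in run 2, and in monocyte or macrophage barcodes 0.72 and -0.91. The difference between the runs was not tested, since each run held 1 library of each genotype. The makeup of the gates differed between the runs and, in each run, between the genotypes, as the marker sums given above show, and its part in the opposite directions was not tested.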

How the results depend on the processing

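All values of the alternatives are log2 ratios of PEP-619WW over PEP-WT unless a percent is given, and those listed here lay outside the counting interval of the value as reported. Of the alternatives, 4 were chosen after seeing the data, namely the mean over all thinning draws, leaving out erythroid barcodes, leaving out barcodes with at least 20 UMIs of *Jchain*, and the latter together with 1 class gate. The 1 direction of *Mt1* or *Mt2* that reversed was that of *Mt2* in monocyte or macrophage barcodes of run 1 without the *Jchain* barcodes. The cause was not tested. *Slc30a1* over all barcodes of run 1, with a ratio of 0.998, changed sign under 3 alternatives within its counting interval. No paired analysis was possible because each genotype had 1 library in a run. Leaving out the UMIs of 403 immunoglobulin, hemoglobin and *S100a8*/*S100a9* genes from the total moved 0 of 20 log2 ratios beyond their intervals, and asking for at least 500 genes and under 10% mitochondrial UMIs moved 0 of 20.

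With barcodes that met exactly 1 class gate, *Mt1* stood in run 1 at 2.61 in B, 0.80 in monocytes or macrophages and 0.81 in erythroid, and in run 2 at -0.55 in monocytes or macrophages. The values of *Mt2* were, in run 1, 1.46 in CD8 T, 2.09 in B, 1.09 in monocytes or macrophages and 0.58 in erythroid. With 1 class gate and under 20 UMIs of *Jchain*, *Mt1* stood in run 1 at 0.73 in CD4 T, 1.33 in B, 0.61 in monocytes or macrophages and 0.78 in erythroid. *Mt2* in run 1 stood at 1.42 in CD8 T, 2.00 in CD4 T, 1.63 in B, 1.17 in monocytes or macrophages and 0.58 in erythroid. Without barcodes with at least 20 UMIs of *Jchain*, *Mt1* stood in run 1 at 0.88 over all barcodes, 1.16 in CD8 T, 0.81 in CD4 T, 0.67 in B, 0.48 in monocytes or macrophages and 0.75 in erythroid. The values of *Mt2* were, in run 1, 0.48 over all barcodes, 1.00 in CD8 T, 1.12 in CD4 T, 0.60 in B, -0.32 in monocytes or macrophages and 0.60 in erythroid. Without erythroid barcodes, *Mt1* stood in run 1 at 1.66 over all barcodes, 2.32 in B and 1.05 in monocytes or macrophages. *Mt2* in run 1 stood at 1.64 over all barcodes, 1.65 in CD8 T, 2.27 in B and 1.40 in monocytes or macrophages. Without barcodes with at least 10 UMIs of *Mt2*, *Mt1* stood in run 1 at 1.33 over all barcodes, 0.73 in CD4 T, 1.89 in B and 0.44 in erythroid, and in run 2 at -0.81 over all barcodes and -0.56 in monocytes or macrophages. The values of *Mt2* were, in run 1, 0.83 over all barcodes, 1.31 in CD4 T, 1.41 in B, 0.52 in monocytes or macrophages and 0.0059 in erythroid, and in run 2, -0.88 over all barcodes. For *Mt2* this cut is made on the value compared. Without the 5% of barcodes with the most UMIs, *Mt1* stood in run 1 at 1.58 over all barcodes, 1.59 in CD8 T, 1.56 in CD4 T, 2.25 in B and 0.83 in erythroid, and in run 2 at -0.84 over all barcodes and -0.52 in monocytes or macrophages. *Mt2* in run 1 stood at 1.05 over all barcodes, 1.73 in CD8 T, 1.67 in CD4 T, 1.38 in B, 0.93 in monocytes or macrophages and 0.66 in erythroid, and in run 2 at -0.78 in monocytes or macrophages. With stricter gates, *Mt1* stood in run 1 at 0.75 in CD4 T. The values of *Mt2* were, in run 1, 1.76 in CD4 T and 0.95 in B. As the mean CPM of single barcodes, *Mt1* stood in run 1 at 1.49 over all barcodes, 1.58 in CD8 T, 2.06 in B and 0.73 in erythroid, and in run 2 at -0.98 over all barcodes and -0.52 in monocytes or macrophages. *Mt2* in run 1 stood at 0.81 over all barcodes, 1.57 in CD8 T, 1.38 in B and 0.53 in erythroid, and in run 2 at -0.80 in monocytes or macrophages. Thinned to 1000 UMIs in a single random draw, *Mt1* stood in run 1 at 1.56 over all barcodes, 1.65 in CD8 T, 3.36 in CD4 T, 2.23 in B, 0.65 in monocytes or macrophages and 0.71 in erythroid, and in run 2 at -0.94 over all barcodes and -0.53 in monocytes or macrophages. The values of *Mt2* were, in run 1, 0.90 over all barcodes and 0.24 in monocytes or macrophages, and in run 2, -0.49 in monocytes or macrophages. As the mean over all such draws, which needs no draw and left both genes in CD4 T within their intervals, *Mt1* stood in run 1 at 1.60 over all barcodes, 1.56 in CD8 T, 2.00 in B and 0.70 in erythroid, and in run 2 at -0.93 over all barcodes and -0.51 in monocytes or macrophages. *Mt2* in run 1 stood at 0.99 over all barcodes, 1.59 in CD8 T, 1.37 in B, 0.95 in monocytes or macrophages and 0.58 in erythroid, and in run 2 at -0.79 in monocytes or macrophages. Centred on the median log2 ratio of all genes, *Mt1* stood in run 2 at -1.04 over all barcodes and -0.74 in monocytes or macrophages. The values of *Mt2* were, in run 2, -1.18 over all barcodes and -1.04 in monocytes or macrophages. *Slc30a1* in run 2 stood at -0.45 over all barcodes. The values of *Mtf1* were, in run 2, 0.17 over all barcodes.

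The share of barcodes with at least 10 UMIs of *Mt2* became, with a threshold of 5 UMIs, 1.25% in PEP-WT of run 1, 2.31% in PEP-619WW of run 1, 2.72% in PEP-WT of run 2 and 0.943% in PEP-619WW of run 2. With a threshold of 20 it was 0.398% in PEP-WT of run 1, 0.536% in PEP-619WW of run 1, 0.377% in PEP-WT of run 2 and 0.0907% in PEP-619WW of run 2. Without the 5% of barcodes with the most UMIs it was 0.135% in PEP-WT of run 1, 0.503% in PEP-619WW of run 1 and 0.772% in PEP-WT of run 2. With at least 10 per 10000 UMIs it was 1.25% in PEP-WT of run 2 and 0.689% in PEP-619WW of run 2, and with the limits on genes and mitochondrial UMIs 1.26% in PEP-WT of run 2. PEP-WT had the smaller share in run 1 and the larger in run 2 under each of these that is given for both genotypes. Depth limited *Slc30a1* and *Mtf1* most, with 458 to 2633 UMIs a library over all barcodes.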
